A study of Bubalus bubalis with 6 samples.

Results

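The nuclear-encoded subunits of the respiratory chain and of the ATP synthase were compared between proliferating and differentiating muscle stem cells (MuSCs) of the water buffalo. The 63 members were the protein-coding rows of the deposited gene table whose symbol starts with NDUF (complex I), SDHA, SDHB, SDHC or SDHD (complex II), UQCR (complex III), COX4, COX5, COX6, COX7 or COX8 (complex IV) or ATP5 (complex V), without the assembly factors whose symbols start with NDUFAF or SDHAF. They were 63 of 24616 genes listed and of 19994 listed as protein coding. Complex I gave 31 members, complex II 3, complex III 6, complex IV 11 and complex V 12. The rule reads only the symbol and the gene type.

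All 6 samples were primary MuSCs that the study isolated from fetal longissimus muscle and cultured in high-glucose DMEM, and their polyadenylated RNA was sequenced. The 3 GM samples had proliferated in growth medium with fetal bovine serum. The 3 DM samples had been moved at near confluence to differentiation medium, DMEM with horse serum. The paper's methods give an upper limit for the time in that medium, and its results place the DM samples on a later day. The labels give no time, so the time of the DM samples is uncertain. No genotype, strain or drug separates the groups. The labels do not say whether the samples of a group were separate cultures or animals, so p-values here measure only the spread between these samples, which may be technical.

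The respiratory chain sits in the inner mitochondrial membrane. Complex I takes electrons from NADH and complex II takes them from succinate, ubiquinone carries them to complex III, and cytochrome c carries them on to complex IV, where oxygen is reduced to water. Complexes I, III and IV pump protons, and complex V, the ATP synthase, makes ATP as the protons flow back. Most subunits are nuclear genes and the rest are encoded by the mitochondrial genome. Mature skeletal muscle is rich in these complexes, and heart and skeletal muscle carry their own forms of some complex IV subunits, among them COX6A2 and COX7A1.

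Each sample held 35615864 to 40305237 counts on genes. Samples were compared on CPM, in which each library is scaled by its total and its TMM factor, and genes on the deposited RPKM, which also divides by gene length. Markers of the labelled cells were found in both groups. Of 9 tested myogenic markers 4 were higher and 4 lower in DM samples, beside 31.6% and 31.4% of all genes tested. Their summed level was 2787 to 3046 CPM in GM samples and 2289 to 2880 CPM in DM samples. Among them MYF5 fell (log2 fold change -2.70) and CKM rose (6.32). PAX7, a satellite cell factor, was at 18.5 ± 0.174 CPM in GM samples and 9.78 ± 3.25 CPM in DM samples, and MYOG, a factor of myogenic differentiation, rose from 53.0 ± 13.3 to 167 ± 15.5 CPM (SD, n = 3 each). Markers of fibroblasts moved in the same samples: 8 of 9 tested were higher in DM samples and 1, POSTN, was lower (log2 fold change -0.93). The summed level of the fibroblast markers was 35800 to 36580 CPM in GM samples and 98040 to 123800 CPM in DM samples. TCF21 had 0, 1 and 7 counts in GM samples and 0 in every DM sample, and was not tested. Adipocyte, endothelial and immune markers each summed to 5.96 to 14.1 CPM per sample. PTPRC was at 0 to 2 counts, PECAM1 at 0 to 8 and LEP at 0 to 3. Single markers of these lists were higher in DM samples, namely CD14 (log2 fold change 2.75), FABP4 (4.38), CIDEC (1.31) and TEK (1.52). Others were lower, namely PPARG (-3.73), TIE1 (-2.37), CDH5 (-2.24), VWF (-1.41) and CD68 (-1.035). Higher were 2 of 6 tested adipocyte, 1 of 7 endothelial and 1 of 6 immune markers. Lower were 1, 3 and 1 in that order, beside the 31.6% and 31.4% of all genes. Smooth muscle and pericyte markers summed to 2665 to 2833 CPM in GM samples and 2503 to 2904 CPM in DM samples. Of the 8 tested 2 were higher and 2 lower in DM samples. The higher ones were KCNJ8, which went from 16, 13 and 5 counts to 612, 511 and 344 counts, and MYH11 (log2 fold change 0.78). The lower ones were MCAM (-0.65) and TAGLN (-0.30). The part of cell composition in the results below was not tested, and in bulk samples fewer cells of a type and less RNA per cell cannot be told apart. DM replicate 3 stood apart from the other DM samples: it had the highest CPM of the 3 DM samples in 45 of 62 tested members and the lowest in 3, and it was the highest in 37.7% of all genes tested.

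Most respiratory chain subunits moved little between GM and DM samples, and more of those that moved were lower than higher in DM samples. Of the 63 members 62 had at least 10 counts in total and were tested with edgeR, and COX4I2 was not. The absolute log2 fold change was under 0.5 in 50 of the 62, or 80.65%, and 45.3% of all 15576 genes tested stayed within that band. COX6A2 and COX7A1 were the 2 members that passed an adjusted p-value of 0.05 with a log2 fold change above 1. Across all genes 15.0% were called higher by this rule and 10.3% lower. By edgeR 0 members were called lower, 0 also at an unadjusted p under 0.05 and 0 by DESeq2.

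Without a minimum fold change, 11 members were higher and 23 lower in DM samples, which is 17.7% and 37.1% of the 62. Of all genes tested 31.6% were higher and 31.4% lower. In 11 members every DM sample lay above every GM sample, where 34.5% of all genes did so, and in 24 members every DM sample lay below, where 34.3% did. The median log2 fold change of the members was -0.12, beside 0.025 for all genes tested. Read against these shares, the count of higher members was below the background and the count of lower members was near it. The second reading did not hold in every alternative. When counts were scaled by library size alone, 8 members were higher and 32 lower (12.9% and 51.6% of members, beside 27.4% and 35.5% of all genes), and the median of the members was -0.22 beside -0.07 for all genes. Without DM replicate 3, 11 were higher and 30 lower (17.7% and 48.4% of members, beside 33.9% and 32.9% of all genes). When every gene with a count was tested, 11 were higher and 24 lower (17.5% and 38.1% of members, beside 26.7% and 26.8% of all genes). Under the RPKM filter of the study's methods the median of the members was -0.07 beside 0.01 for all genes.

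**Figure D1:**
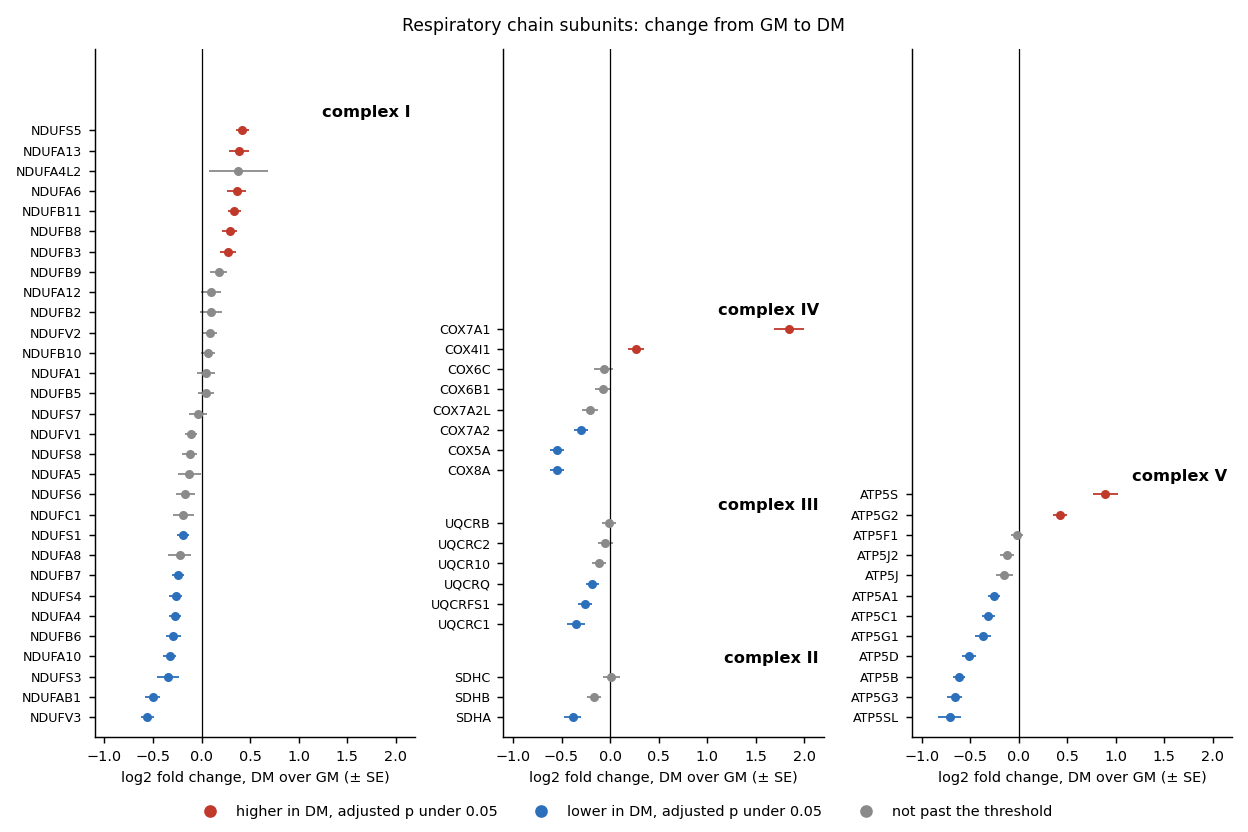
Log2 fold change of DM over GM samples (horizontal axis, with its SE) for 59 members, grouped by complex and coloured by whether they passed an adjusted p-value of 0.05 in edgeR. COX6A2 (5.84) and COX6B2 (-1.21, 15 counts in all) lie outside the axis or are too imprecise to draw, 1 other tested member is not drawn, and most other points lie between -0.5 and 0.5.

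The summed level of the members was lower in DM samples for every complex but complex I, where the groups overlapped. The counts on all 63 members came to 7069, 7469 and 7385 CPM in the 3 GM samples and to 6074, 6046 and 6705 CPM in the 3 DM samples, so that the groups did not overlap and the DM mean was 0.859 of the GM mean. As a share of raw counts they took 0.756 ± 0.0201% in GM samples and 0.607 ± 0.0385% in DM samples (SD, n = 3 each), a ratio of 0.803. Complex V had the lowest ratio and went from 3363, 3455 and 3503 CPM in GM samples to 2640, 2588 and 2892 CPM in DM samples, 0.787 of the GM mean. Abundant genes weigh most in such sums. ATP5B of complex V alone averaged 1144 CPM in GM samples and 748.7 CPM in DM samples. Complex I overlapped between the groups, with 1995, 2197 and 2090 CPM in GM samples and 1971, 2009 and 2152 CPM in DM samples, a ratio of 0.976.

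The sums of complexes II, III and IV lay between these extremes. Their ratios of DM to GM means were 0.827, 0.864 and 0.879, in that order, and no DM sample of any of the 3 reached the lowest GM sample. In complex II, SDHA averaged 285.9 CPM in GM samples and 218.7 CPM in DM samples. SDHB averaged 113.0 and 100.8 CPM, and SDHC 58.0 and 58.5 CPM. A ratio of sums within a sample does not depend on how samples are scaled to each other. The summed counts of complex V over those of complex I were 1.69, 1.57 and 1.68 in GM samples and 1.34, 1.29 and 1.34 in DM samples. The groups did not overlap in this ratio, nor in that of complex II, III or IV over complex I. These ratios were chosen after the values were seen and have no test.

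**Figure D2:**
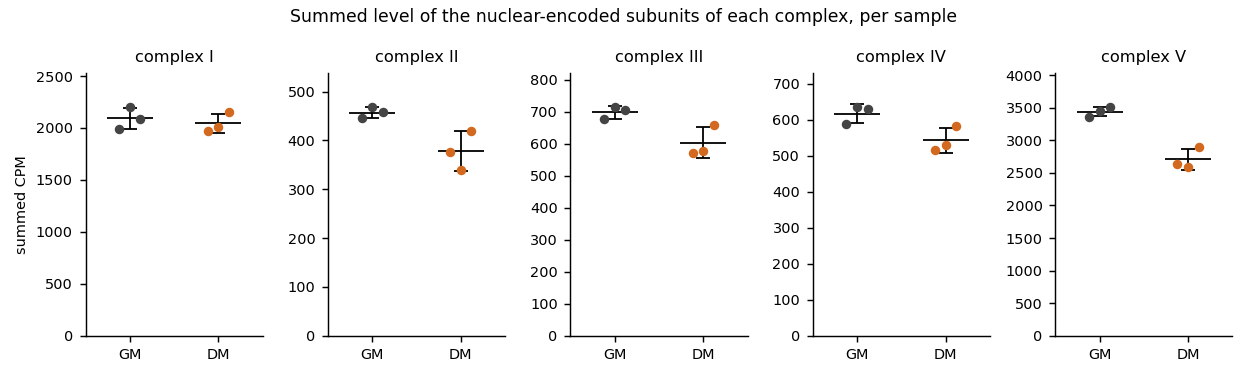
Summed CPM of the members of each complex (vertical axes, from 0) in the 3 GM and the 3 DM samples, one point per sample, with the mean and SD as bars. The DM points of complexes II to V all lie below the GM points, and those of complex I lie among them.

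The subunits were among the more abundant transcripts of these cells. By mean RPKM over the 6 samples 12 members were among the 500 highest genes and 32 among the 1000 highest, out of 18176 genes with a count. ATP5B, the catalytic beta subunit of the ATP synthase, was the highest member at 538 RPKM, rank 151 of all genes. The median member stood at 93.8 RPKM, with medians of 74.3 RPKM in complex I, 111 RPKM in complex II, 132 RPKM in complex III, 82.8 RPKM in complex IV and 200.5 RPKM in complex V. A mean below 20 RPKM was found in 7 members, namely COX4I2, COX6B2, NDUFA4L2, COX6A2, ATP5S, ATP5SL and COX7A1. The median SE of the log2 fold change was 0.0791 for the members and 0.119 for all genes tested.

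Complex I changed in both directions. Of its 31 members 6 were higher, 9 were lower and 16 did not pass the test, and its median log2 fold change was -0.04. That is 19.4% higher and 29% lower, beside 31.6% and 31.4% of all genes tested. The 7 core subunits, which carry electrons from NADH to ubiquinone, gave 0 higher members in edgeR (0 also at an unadjusted p under 0.05, and 0 by DESeq2) and 2 lower ones. NDUFS1, the largest iron-sulfur subunit, had 114, 113 and 119 CPM in GM samples and 97.0, 104 and 101 CPM in DM samples, for a log2 fold change of -0.19 ± 0.06 (SE, edgeR adjusted p = 0.0162). NDUFS1 did not pass without GM replicate 3 (adjusted p = 0.0787 in edgeR) or without DM replicate 1 (adjusted p = 0.0618 in edgeR). The other lower core subunit was NDUFS3 at -0.35 ± 0.11, whose DM replicate 3 (47.0 CPM) lay above GM replicate 3 (45.6 CPM), and its call was lost when GM replicate 1 or 2 or DM replicate 1 or 2 was left out.

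The other core subunits described here were within their spread. NDUFV1, the FMN-binding subunit that oxidises NADH, had 167, 189 and 175 CPM in GM samples and 168, 160 and 166 CPM in DM samples. Its log2 fold change was -0.11, with a 95% interval from -0.23 to 0.02 (edgeR adjusted p = 0.167). NDUFV2 was at 0.09, NDUFS7 at -0.04 and NDUFS8 at -0.12, and none of the 3 passed the test.

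The accessory subunits of complex I do not take part in catalysis themselves and are needed for assembly and stability. In the peripheral arm, which reaches into the matrix, NDUFV3 showed the largest fall of complex I. Its values were 45.7, 48.2 and 45.2 CPM in GM samples and 31.0, 31.9 and 31.6 CPM in DM samples, for a log2 fold change of -0.56 ± 0.07 (SE, edgeR adjusted p = 2.95e-05). NDUFS4 was also lower (-0.27), NDUFA6 was higher (0.36), and NDUFA5, NDUFA12 and NDUFS6 did not pass. NDUFAB1, the mitochondrial acyl carrier protein, which also serves fatty acid synthesis, fell from 55.2, 60.5 and 58.1 CPM to 38.6, 39.3 and 44.8 CPM, for a log2 fold change of -0.50 ± 0.08 (SE, edgeR adjusted p = 0.000233).

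In the membrane arm, 5 of 15 accessory subunits rose and 3 fell in DM samples, which is 33.3% and 20% beside the 31.6% and 31.4% of all genes. NDUFS5 rose most, from 61.1, 65.3 and 66.8 CPM in GM samples to 88.8, 81.4 and 88.1 CPM in DM samples, for a log2 fold change of 0.42 ± 0.07 (SE, edgeR adjusted p = 0.000281). The higher members beside it were NDUFA13 (0.38), NDUFB11 (0.34), NDUFB8 (0.29) and NDUFB3 (0.27). NDUFB8 and NDUFB3 did not pass when counts were scaled by library size alone, and NDUFB3 did not pass without GM replicate 1. The lower ones were NDUFA10 (-0.33), NDUFB6 (-0.29) and NDUFB7 (-0.24). The 15 had a median of 0.07.

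NDUFA4 carries a complex I symbol and is now placed in complex IV, and NDUFA4L2 is its paralog, known as a target of hypoxia signaling. NDUFA4 was the NDUF gene of highest mean RPKM (272 RPKM) and fell from 162, 173 and 175 CPM in GM samples to 136, 138 and 148 CPM in DM samples, for a log2 fold change of -0.28 ± 0.06 (SE, edgeR adjusted p = 0.00285). NDUFA4L2 had 108, 112 and 104 counts in GM samples and 107, 73 and 196 counts in DM samples. The DM samples of NDUFA4L2 lay on both sides of the GM samples, its log2 fold change was 0.38 ± 0.31 (SE, edgeR adjusted p = 0.301), and without DM replicate 3 it was -0.05.

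Complex II links the citric acid cycle to the chain, and 3 of its subunits were listed. SDHA, the flavoprotein that oxidises succinate, had 280, 300 and 278 CPM in GM samples and 219, 191 and 246 CPM in DM samples. All DM samples of SDHA lay below the GM samples, with a log2 fold change of -0.39 ± 0.09 (SE, edgeR adjusted p = 0.00266). SDHB, the iron-sulfur subunit, also had every DM sample below the GM samples, at 112, 110 and 117 CPM against 100, 93.6 and 108 CPM. Its log2 fold change of -0.17 did not pass (edgeR adjusted p = 0.0585), and it passed without DM replicate 3 (-0.21, edgeR adjusted p = 0.00984). SDHC, a membrane anchor, was at 0.01 with an interval from -0.16 to 0.18.

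In complex III 3 of 6 members were lower in DM samples, 3 did not pass and 0 were higher in edgeR, 0 at an unadjusted p under 0.05 and 0 by DESeq2. The lower ones were 50% of the 6, where 31.4% of all genes tested were lower and 31.6% higher. UQCRC1, a core protein, had 226, 249 and 228 CPM in GM samples and 174, 163 and 214 CPM in DM samples, for a log2 fold change of -0.35 ± 0.10 (SE, edgeR adjusted p = 0.00826). UQCRFS1, the Rieske iron-sulfur protein that passes electrons towards cytochrome c, had 146, 152 and 156 CPM in GM samples and 119, 123 and 138 CPM in DM samples, for a log2 fold change of -0.26 ± 0.07 (SE, edgeR adjusted p = 0.00838). The DM samples of both genes all lay below the GM samples. UQCRQ, a small subunit and the member of complex III with the highest mean RPKM (235 RPKM), changed by -0.18 ± 0.07 (SE, edgeR adjusted p = 0.036). That call was lost without GM replicate 2 or 3, without DM replicate 1 or 2, with the replicate number as a block (edgeR adjusted p = 0.058), under the RPKM filter of the study's methods and without the 50 most counted genes. UQCRC2, the partner core protein of UQCRC1, was at -0.05 with an interval from -0.20 to 0.10.

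CYC1, the cytochrome c1 subunit of complex III, has a symbol outside the prefixes above and was the single gene listed of 7 further subunits and electron carriers. It had 7947, 9687 and 7803 counts in GM samples and 3720, 3922 and 4717 counts in DM samples, for a log2 fold change of -0.87 ± 0.09 (SE, edgeR adjusted p = 1.02e-05).

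Complex IV held the largest rise of the set and 3 of its falls. Of its 10 tested members 3 were higher and 3 lower, 30% each, beside 31.6% and 31.4% of all genes tested. COX6A2, the heart and skeletal muscle form of subunit 6A (ENSBTAG00000019521, chr25:27737582-27738205, minus strand, in the cattle coordinates of the table, which names no build), had 1, 1 and 3 counts in the GM samples and 67, 104 and 106 counts in the DM samples. Every DM sample of COX6A2 was far above the GM samples. On the summed counts, scaled to the TMM-normalized library sizes, the ratio was 62.4, with a 95% exact interval of 26.4 to 194 that covers counting error only. The fitted log2 fold change was 5.84 ± 0.45 (SE, edgeR adjusted p = 1.13e-06), and it lay between 5.57 and 6.55 in every alternative that tested the gene. Even so, COX6A2 remained a low transcript in DM samples, at 6.52 ± 1.37 RPKM (SD, n = 3), and the filter of the study's methods on RPKM left it out. COX6A1, its counterpart in other tissues, was not analysed here.

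COX7A1, the muscle form of subunit 7A (ENSBTAG00000014878, chr18:46994991-46996544, minus strand, same coordinates), had 79, 82 and 85 counts in GM samples and 256, 267 and 260 counts in DM samples. The spread within each group was small beside the difference. Its log2 fold change was 1.84 ± 0.16 (SE, edgeR adjusted p = 2.47e-06), a 3.58-fold rise, and lay between 1.74 and 1.91 under all alternatives. COX7A2, the form found in most tissues, fell from 69.5, 75.2 and 71.3 CPM to 54.6, 62.3 and 58.9 CPM, for a log2 fold change of -0.30 ± 0.07 (SE, edgeR adjusted p = 0.00399).

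Of the summed RPKM of COX7A1 and COX7A2, COX7A1 took 3.81, 3.65 and 4.35% in GM samples and 16.7, 14.5 and 14.7% in DM samples. The 2 genes thus moved in opposite directions, and COX7A2 still held most of the sum in every DM sample. An exact two-sided permutation test of the share gave p = 0.1, which no 3 against 3 comparison can go below, and 0.4 when adjusted by Benjamini-Hochberg over the 4 pairs of paralogs compared. The other 3 pairs were NDUFA4L2 with NDUFA4 (0.903 ± 0.0143% in GM samples and 1.40 ± 0.602% in DM samples, SD, n = 3, exact permutation p = 0.4), COX6B2 with COX6B1 and COX4I2 with COX4I1. COX6B2 had 4, 2 and 5 counts in GM samples and 4, 0 and 0 in DM samples, and COX4I2 had 0, 1 and 2 counts in each group, so that neither gave a usable share. A ratio of 0.410 for COX6B2 had a 95% exact counting interval of 0.0952 to 1.38, and its fitted log2 fold change of -1.21 did not pass (edgeR adjusted p = 0.383). Without DM replicate 1, which held all 4 of its DM counts, that call passed.

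**Figure D3:**
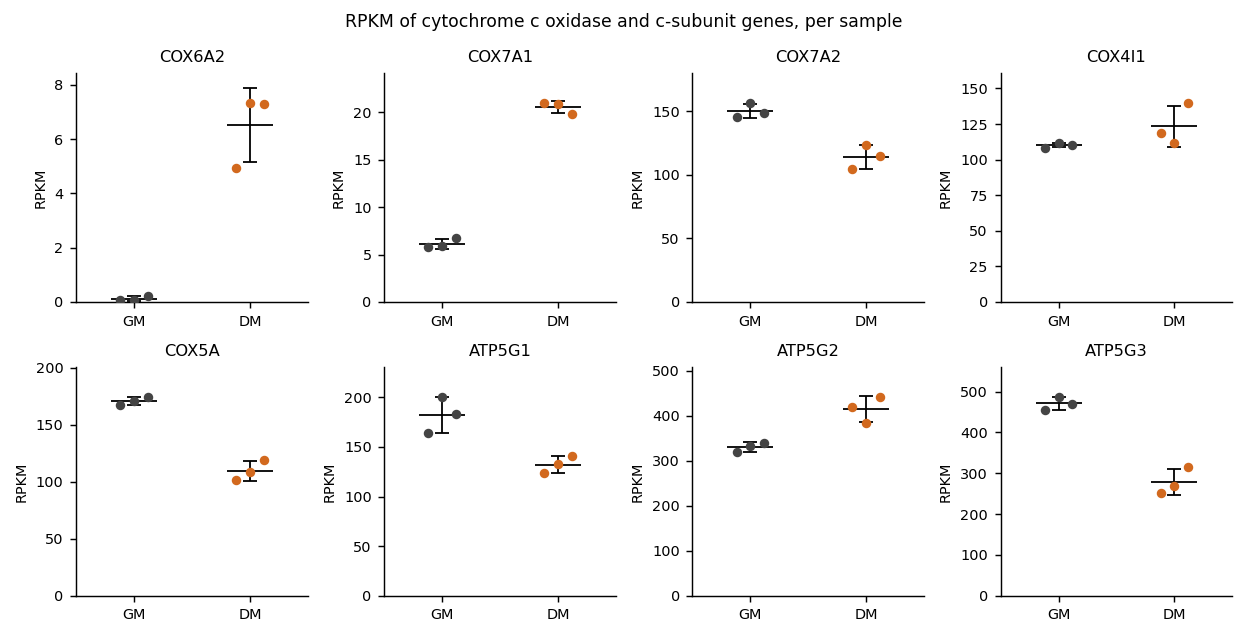
RPKM of 8 members (vertical axes, from 0, a scale per gene) in the 3 GM and 3 DM samples, one point per sample, with the mean and SD as bars. COX6A2, COX7A1 and ATP5G2 lie higher in all DM samples than in all GM samples, COX7A2, COX5A, ATP5G1 and ATP5G3 lie lower, and on this scale the COX4I1 groups lie close together.

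The remaining complex IV subunits occur in most tissues. COX5A fell from 117, 120 and 122 CPM in GM samples to 77.4, 79.9 and 88.9 CPM in DM samples, for a log2 fold change of -0.55 ± 0.07 (SE, edgeR adjusted p = 4.44e-05). COX4I1, the common form of the largest nuclear subunit, moved the other way, from 113, 117 and 116 CPM to 136, 123 and 157 CPM, with a log2 fold change of 0.26 ± 0.08 (SE, edgeR adjusted p = 0.0181). The rise of COX4I1 did not pass with library size alone (0.16, edgeR adjusted p = 0.104), without GM replicate 1 or without GM replicate 3. Their ratio, COX4I1 over COX5A in RPKM, does not depend on scaling and was 0.649, 0.652 and 0.634 in GM samples and 1.18, 1.03 and 1.18 in DM samples. This ratio was chosen after the values were seen.

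COX8A, the complex IV member of highest mean RPKM (212 RPKM), fell from 102, 118 and 116 CPM to 76.9, 73.6 and 79.2 CPM, for a log2 fold change of -0.55 ± 0.07 (SE, edgeR adjusted p = 6.04e-05). The interval listed for COX8A (chr20:24442440-24442887) is no longer than its listed length of 448 bases, so it holds no intron. The same is true of COX6B1 (479 bases, log2 fold change -0.07, not past the test). Reads from another copy of such a sequence could not be told apart here, and the values of both genes are uncertain in that respect. COX6C (-0.07) and COX7A2L (-0.21, edgeR adjusted p = 0.051), a factor of supercomplex assembly, did not pass.

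Complex V had the lowest median of the complexes, with 7 of 12 members lower in DM samples, 2 higher and 3 not past the test, and a median log2 fold change of -0.28. That is 58.3% lower and 16.7% higher, beside 31.4% and 31.6% of all genes tested. All 4 listed subunits of the F1 head, which makes ATP, were lower. ATP5B, the catalytic beta subunit, had 1134, 1123 and 1175 CPM in GM samples and 747, 708 and 791 CPM in DM samples. Its log2 fold change was -0.61 ± 0.06 (SE, edgeR adjusted p = 9.45e-06), a level in DM samples of 0.655 of that in GM samples. ATP5A1, the alpha subunit, had 840, 836 and 852 CPM in GM samples and 677, 688 and 760 CPM in DM samples, for a log2 fold change of -0.25 ± 0.06 (SE, edgeR adjusted p = 0.00524).

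The alpha and beta subunits occur in equal number in the F1 head, but their transcripts did not keep a fixed ratio. ATP5A1 over ATP5B in RPKM was 0.687, 0.690 and 0.672 in GM samples and 0.840, 0.899 and 0.890 in DM samples, with no overlap. The ratio was chosen after the values were seen. ATP5D, the delta subunit of the central stalk, changed by -0.51 and ATP5C1, the gamma subunit, by -0.31. In the peripheral stalk and the membrane part, ATP5F1 (-0.02), ATP5J (-0.15) and ATP5J2 (-0.12) did not pass, and the 95% interval of ATP5F1 ran from -0.13 to 0.10.

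The c subunit, which forms the rotating ring in the membrane, is encoded by 3 nuclear genes that give the same mature protein. The 3 genes did not change together. ATP5G3 fell from 304, 327 and 315 CPM in GM samples to 184, 190 and 225 CPM in DM samples, for a log2 fold change of -0.66 ± 0.08 (SE, edgeR adjusted p = 3.63e-05). ATP5G1 fell from 87.0, 107 and 97.5 CPM to 71.6, 74.2 and 79.8 CPM, for a log2 fold change of -0.37 ± 0.08 (SE, edgeR adjusted p = 0.00271). ATP5G2 rose from 183, 192 and 196 CPM to 263, 233 and 272 CPM, for a log2 fold change of 0.43 ± 0.07 (SE, edgeR adjusted p = 0.000348).

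As a share of their summed RPKM, ATP5G2 took 34.0, 32.5 and 34.2% in GM samples and 52.7, 48.8 and 49.2% in DM samples, while ATP5G3 went from 47.9 ± 0.599% to 33.7 ± 1.79% and ATP5G1 from 18.5 ± 1.10% to 16.0 ± 0.722% (SD, n = 3 each). ATP5G3 was thus the highest of the 3 in every GM sample and ATP5G2 in every DM sample. The sum of the 3 genes was 938, 1019 and 993 RPKM in GM samples and 793, 785 and 897 RPKM in DM samples. These shares do not depend on scaling between samples. They were chosen after the values were seen and have no test.

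The extremes of complex V were 2 genes that are not structural subunits. ATP5S, known as coupling factor B, rose from 291, 251 and 247 counts to 437, 467 and 391 counts, for a log2 fold change of 0.89 ± 0.13 (SE, edgeR adjusted p = 0.000129). ATP5SL, known despite its symbol as an assembly factor of complex I, fell from 393, 440 and 369 counts to 197, 235 and 220 counts, for a log2 fold change of -0.71 ± 0.12 (SE, edgeR adjusted p = 0.000433). Neither gene overlapped between the groups, and both were low, at 5.45 and 9.96 RPKM on average.

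Genes that build the complexes were read from the same fit, in which 31.6% of all genes tested were higher and 31.4% lower. Of 15 listed assembly factors of complex I 2 were higher in DM samples and 8 lower, of 9 for complexes II and III 1 was higher and 5 lower, of 17 for complex IV 2 were higher and 9 lower, and of 3 for the ATP synthase 0 were higher and 2 lower. Their median log2 fold changes were -0.32, -0.28, -0.20 and -0.26 in that order. BCS1L, which inserts the Rieske protein into complex III, fell by 1.08 on the log2 scale (SE 0.09, edgeR adjusted p = 1.42e-06), and SCO2, which delivers copper to complex IV, fell by 1.03 (SE 0.10, edgeR adjusted p = 6.47e-06). Both values were below those of every complex III and IV member that passed the test. The factors with the largest changes beside them were TTC19 (-0.72) for complex III, COA7 (-0.86) for complex IV, ACAD9 (-0.83) and NDUFAF4 (-0.58) for complex I, and ATPAF2 (-0.54) and ATPAF1 (-0.26) for the ATP synthase.

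Regulators of mitochondrial biogenesis gave 1 higher gene and 6 lower ones among 12 tested, beside 31.6% and 31.4% of all genes tested. PPARGC1A, the coactivator PGC-1alpha, had 14, 6 and 13 counts in GM samples and 144, 143 and 116 counts in DM samples, for a log2 fold change of 3.77 ± 0.33 (SE, edgeR adjusted p = 2.83e-06). POLRMT, the mitochondrial RNA polymerase, went the other way, from 5148, 5577 and 4795 counts to 1765, 1723 and 1918 counts, for a log2 fold change of -1.35 ± 0.07 (SE, edgeR adjusted p = 5.87e-08). The groups did not overlap for either gene. The list as a whole had a median of -0.17.

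Of 17 genes of pyruvate dehydrogenase and the citric acid cycle 1 was higher and 9 were lower (median -0.22). For this list and the next, the shares of all genes tested were 31.6% higher and 31.4% lower (median 0.025). IDH2, the mitochondrial NADP-dependent isocitrate dehydrogenase, changed by -1.79 ± 0.07 (SE, edgeR adjusted p = 1.17e-08) and PDHB by -0.74. Of 20 genes of mitochondrial import, carriers and porins 3 were higher and 12 lower (median -0.52). Among these are 3 paralogs that exchange ATP and ADP across the inner membrane. SLC25A5, the form typical of dividing cells, had 9289, 10326 and 9097 counts in GM samples and 2603, 2715 and 2990 counts in DM samples (log2 fold change -1.62 ± 0.07, SE), while SLC25A4, the form of heart and muscle, had 2835, 2577 and 2683 counts in GM samples and 4531, 4793 and 6102 counts in DM samples (log2 fold change 1.10 ± 0.10, SE). SLC25A6, the most abundant of the 3 at 1223 ± 57.7 CPM in GM samples and 1103 ± 57.1 CPM in DM samples (SD, n = 3 each), did not pass (log2 fold change -0.15, edgeR adjusted p = 0.0656).

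**Figure D4:**
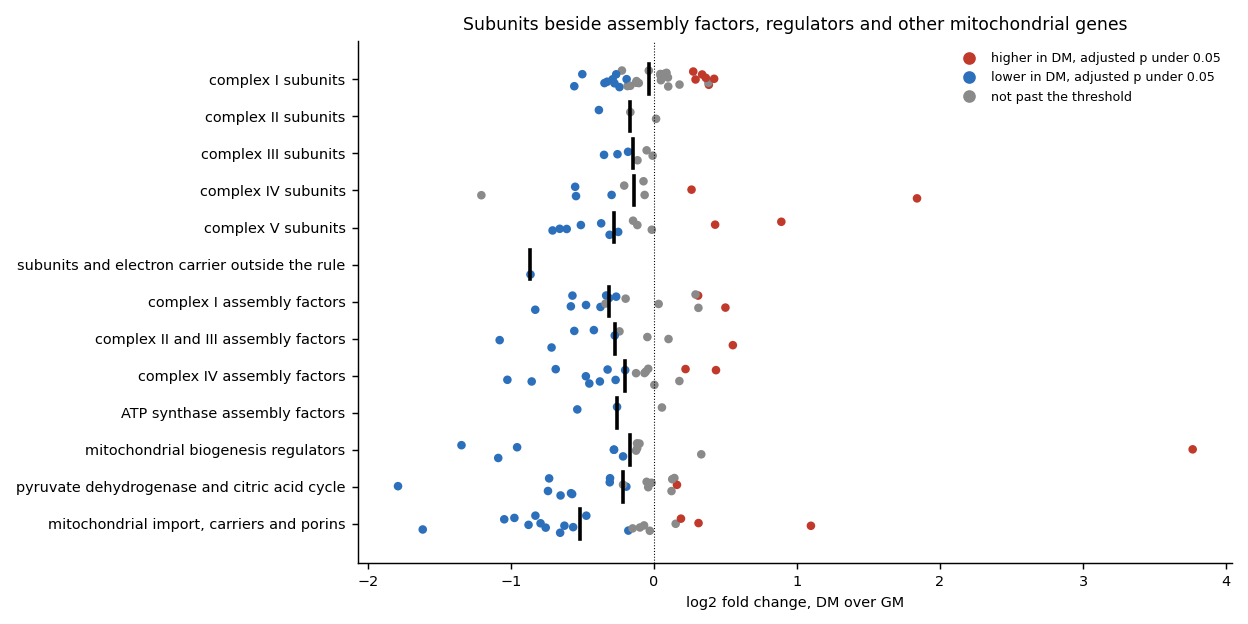
Log2 fold change of DM over GM samples (horizontal axis) for the tested members of each complex and for 8 lists of related genes, without the mitochondrially encoded subunits, one point per gene, coloured by whether it passed an adjusted p-value of 0.05 in edgeR, with the median as a black bar. COX6A2 (5.84) is counted in the median of complex IV but lies outside the axis, and each bar drawn lies below 0, from -0.04 for complex I to -0.87 for the single gene CYC1.

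The partner subunits encoded by the mitochondrial genome could not be compared with these counts. All 13 protein-coding genes of that genome are listed, but 6 had 0 counts in every sample, 9 never exceeded 3 counts in any sample, and together they had 48 to 66 counts per sample. The 4 that were tested did not pass, and why genes in use in every cell are listed at 0 was not tested. The 2 mitochondrial rRNAs had 19985 to 21674 counts per GM sample and 12120 to 15526 counts per DM sample. In these tables the nuclear-encoded and the mitochondrially encoded subunits of a complex can therefore not be set beside each other.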

How the data were processed

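RNA-seq of 3 GM and 3 DM samples was analysed from 2 tables. The authors deposited raw counts per gene and per transcript, without normalization, and RPKM values, which equal those counts over the listed length and the sample's total. The paper's methods name HISAT2 and a buffalo assembly. The submitters' processing notes name Bowtie 0.12.2 and the builds mm8 and mm9, and the tables list cattle Ensembl identifiers with chromosome numbers up to 29 and no build. The alignment behind the counts is therefore uncertain. Strand use in counting is not given in the sources used here, and 7 members overlap another listed gene, so their reads may be shared (NDUFA4L2, NDUFB9, UQCRC2, COX4I1, COX6B1, ATP5J and ATP5B). The lists of differentially expressed features, with the authors' own fold changes and p-values, were not used.

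Counts were fitted with edgeR 4.0.16 under R 4.3.3 (quasi-likelihood, TMM) over all genes with at least 10 counts in total, with Benjamini-Hochberg adjustment over 15576 genes. A member was called at an adjusted p-value under 0.05, with or without an absolute log2 fold change above 1. Fold changes are DM over GM, with standard errors from the F statistic. The 95% intervals of fold changes are 1.96 SE wide on each side. scipy 1.17.1, numpy 2.4.6 and pandas 2.3.3 under Python 3.11.15 were used for summaries and the exact permutation tests. The members, the lists of related genes and markers, the paralog pairs and the assignment to arms (from general knowledge) were chosen with earlier results of these data known. The genes named are those called with a log2 fold change above 1, the largest rise and fall and the highest mean RPKM of each complex, the paralogs and c-subunit genes, catalytic subunits (COX5B and ATP5IF1 were not analysed here), and the 2 called genes of each related list with the largest change. Other members were named after their values were seen. Replicate numbers did not pair the samples (correlations of deviations from -0.022 to 0.024). Alternatives were DESeq2 1.42.0, other scaling and filters, protein-coding genes only, the mRNA transcript table, a replicate block, raw counts for shares, another assignment to complexes, and each sample left out. Sequences of the members were not analysed here, and the values of 1 member are not reported here by name.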

Additional observations from a re-analysis of the deposited data

How the results depend on the processing

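Of the 34 members at an adjusted p-value under 0.05, 28 kept their direction and their call in every alternative that tested them, 20 of the lower and 8 of the higher ones. COX6A2 is among the 28 and was not tested under the RPKM filter. Library size alone, without TMM, moved the medians most: to -0.221 for all members, -0.136 for complex I, -0.264 for complex II, -0.246 for complex III, -0.238 for complex IV and -0.378 for complex V, with the median of all genes going from 0.025 to -0.072. The RPKM filter gave -0.068 for all members. With filterByExpr, which leaves out COX6B2, the median of complex IV was -0.063. Members called above a log2 fold change of 1 numbered 1 under the RPKM filter, which leaves out COX6A2, and 2 to 3 with each sample left out in turn, the additional one being COX6B2 without DM replicate 1. With each sample left out in turn, 9 to 13 members were higher and 21 to 30 lower, and the median ranged from -0.176 to -0.089. With a replicate block the median was -0.13, with 11 members higher and 23 lower, and among the genes followed it changed the call of UQCRQ (edgeR adjusted p = 0.058) and no other. NDUFA4L2 ranged from -0.049 without DM replicate 3 to 0.677 without DM replicate 2. The median of complex I lay between -0.136 and 0.019, so its sign depends on the processing. NDUFV1, not called, passed with library size alone (-0.205), NDUFS1 lost its call under the RPKM filter, and SDHB, not called, passed with library size alone, with protein-coding genes only, in the transcript table and without DM replicate 3. ATPAF1 lost its call under the RPKM filter and without GM replicate 2, GM replicate 3 or DM replicate 1. The causes of these shifts were not tested beyond the omissions named. Members with few counts (COX4I2 and COX6B2) cannot be compared at this depth.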

Other observations

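Among the 62 tested members, the log2 fold change had a Spearman rho of -0.22 with mean RPKM and of -0.22 with the listed length. Over the 56 members with at least 20 RPKM on average these were -0.20 and -0.23. The members share the 6 libraries, and both values are descriptions over genes, with no test. DM replicate 1 was the lowest of the 3 DM samples in 32 of the 62 members and DM replicate 2 in 26. The shares of all genes in which each was lowest are not given here, so these counts have no background beside them.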
